A study of Mus musculus with 4 samples.

Results

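Lymphatic endothelial cells line the vessels that drain fluid and leukocytes from the kidney, and they are sparse in single-cell samples of it. The genes described here are 6 markers of that lineage, Prox1, Lyve1, Ccl21a, Mmrn1, Pdpn and Flt4, taken by symbol from the 20672 genes counted. They were chosen by their UMI counts and co-detection in the endothelial cells of these libraries, so these values are a description, without a test. Single-cell RNA was measured in 4 mouse kidney libraries, 1 for each group: E15.5 and P0 kidneys of ICR mice, E17.5 kidneys of C57BL/6 mice, and C57BL/6N kidneys dissected at E12.5 that spent 12 days as grafts in epididymal fat. All 4 are labelled wild type. The host is given as NOD immunodeficient mice in one place and as C57BL/6N in another, and host cells were not separated from graft cells. With 1 library per group, variation between animals was not measured. Strain cannot be told apart from stage at E17.5, and in the transplant strain, site, host and time of growth cannot be told apart from each other.

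PROX1 is the transcription factor that sets and holds lymphatic identity, and it is switched on in venous endothelium under SOX18 and NR2F2. Cells that leave the vein follow the growth factor VEGF-C, which is read by the receptor tyrosine kinase VEGFR-3, the product of Flt4. Podoplanin, the product of Pdpn, binds CLEC-2 on platelets and keeps blood and lymph apart. LYVE1 binds hyaluronan and MMRN1 is a secreted matrix protein stored in endothelial cells. CCL21 is the chemokine that draws CCR7-bearing leukocytes into lymphatic vessels. Several of these genes are also active elsewhere: Lyve1 in tissue macrophages, Pdpn in podocytes and mesothelium, and Flt4 in some blood capillaries.

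The files' build is GRCm38. Prox1 lies on chromosome 1 at 190118035 to 190170714 on the minus strand, Lyve1 on chromosome 7 at 110850607 to 110863239 on the minus strand, and Ccl21a on chromosome 4 at 42772860 to 42773993 on the minus strand. Mmrn1 lies on chromosome 6 at 60924976 to 60989378 on the plus strand, Pdpn on chromosome 4 at 143267431 to 143299564 on the minus strand, and Flt4 on chromosome 11 at 49609263 to 49652739 on the plus strand. The 5′ end of Prox1 overlaps the antisense gene Prox1os by 419 bases. The mouse genome carries near copies of Ccl21a, which bears on how its reads were assigned. The coding sequences of Ccl21a and Ccl21b are 402 bases each and 99.5% identical, and both differences fall in the stretch of coding bases 64 to 214, shown here with the differing bases in capitals.
Ccl21a: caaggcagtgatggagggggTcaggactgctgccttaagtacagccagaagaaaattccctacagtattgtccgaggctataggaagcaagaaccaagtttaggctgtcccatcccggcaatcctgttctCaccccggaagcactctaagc
Ccl21b: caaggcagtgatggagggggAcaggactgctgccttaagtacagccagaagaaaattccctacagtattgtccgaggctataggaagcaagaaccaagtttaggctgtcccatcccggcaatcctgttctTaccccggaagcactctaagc
Counting from 1 at the first coding base, the differences are T84A, in codon 28, and C194T, in codon 65, with the Ccl21a base first. The annotated Ccl21a transcript goes on for 393 bases past its stop codon, while the Ccl21b model held here has 0, and the annotation the authors counted with may differ. How 3′ reads were shared between the copies is therefore uncertain.

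The 250 bases before the start sites of Prox1, Ccl21a and Pdpn are shown because these genes lay together in a few endothelial cells, described further on, while Prox1 and Pdpn were also read in epithelial classes. They come from RefSeq on GRCm38.p6, where 5 of the 6 genes were matched and Lyve1 was not, and are written in the direction of transcription. Capitals mark a forkhead core (TGTTTA) or a nuclear receptor core (AGGTCA).
Prox1, chr1:190170828-190171077, minus strand: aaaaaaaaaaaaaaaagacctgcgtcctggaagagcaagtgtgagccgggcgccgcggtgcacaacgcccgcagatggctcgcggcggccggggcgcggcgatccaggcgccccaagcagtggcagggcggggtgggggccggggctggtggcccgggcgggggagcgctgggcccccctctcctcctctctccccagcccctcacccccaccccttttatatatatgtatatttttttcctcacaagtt
Ccl21a, chr4:42773992-42774241, minus strand: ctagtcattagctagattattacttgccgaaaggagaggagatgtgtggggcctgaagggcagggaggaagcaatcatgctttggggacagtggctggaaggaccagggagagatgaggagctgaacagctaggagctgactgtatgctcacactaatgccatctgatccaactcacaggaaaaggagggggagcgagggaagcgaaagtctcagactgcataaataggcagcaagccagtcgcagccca
Pdpn, chr4:143299565-143299814, minus strand: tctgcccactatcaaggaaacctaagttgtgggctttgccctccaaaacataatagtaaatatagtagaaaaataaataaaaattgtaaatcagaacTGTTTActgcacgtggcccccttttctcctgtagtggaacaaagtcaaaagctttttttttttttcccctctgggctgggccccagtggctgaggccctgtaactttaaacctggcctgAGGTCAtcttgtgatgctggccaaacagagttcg
Searched on both strands for these motifs and for a SOX core (AACAAT), the Prox1 and Ccl21a windows shown held none. A second RefSeq start of Prox1, not shown, had TGTTTA 166 bases before it. The Mmrn1 window, also not shown, held AACAAT 231 bases before the start, and that of Flt4 held none of these motifs. The Pdpn window held TGTTTA 153 bases and AGGTCA 34 bases before the start. Among 32851 mouse promoter windows of this length, 12.0% held TGTTTA, 14.0% held AGGTCA and 9.42% held AACAAT. These matches describe letters in a window and not binding.

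After filters on gene number and mitochondrial share, the E15.5, E17.5, P0 and transplant libraries kept 3565, 4563, 8092 and 6618 cells, with median UMIs of 22734, 7261, 9996.5 and 6269.5. Cells were sorted into 16 classes by marker genes, and a cell was endothelial when at least 3 of Pecam1, Cdh5, Tie1, Egfl7, Esam and Cldn5 were on and led every other class by at least 2 markers. Cells with markers of several classes stayed without a class, which was the only treatment of doublets. None of the 6 genes was used in this gate. It gave 231 endothelial cells in the E15.5 library, 486 at E17.5, 956 at P0 and 750 for the transplant, with median UMIs of 27484, 9788, 8990 and 6763. Pecam1 in them was between 353 and 717 CPM (UMI counts scaled to a fixed total of all UMIs in the class and library). In cells of the other classes it was at 1.99 to 5.28 CPM, with cells without a class left out. The macrophage gene C1qa was at 0.091 to 1.06 CPM in the endothelial cells. Both genes are markers used in sorting the classes, so these levels are no separate check of the gate. Pairs of libraries shared 27 to 108 cell barcodes. The P0 library, although labelled wild type, held UMIs of the reporter tdTomato in every class, from 25.4 CPM in early nephron to 500.4 CPM in mural cells and 98.0 CPM in endothelium, and the other 3 libraries held 0.

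Ccl21a gave the widest range of the 6. Endothelial cells of the transplant held 6555 Ccl21a UMIs (989 CPM), those at E15.5 held 2129 (286 CPM) and those at P0 held 267 (24.2 CPM), while those at E17.5 held 0, for which the counting interval reaches 0.635 CPM. The order was transplant, E15.5, P0 and E17.5, and no neighbours overlapped in their 95% counting intervals, which take UMIs of the same cell as independent. The UMIs were not spread over the endothelium. Of the 231 endothelial cells at E15.5, 209 had no Ccl21a UMI, 19 had 1 and 3 had 256 or more. At P0, 953 of 956 cells had none, 1 had 1 UMI and 2 had 59 and 207. In the transplant 727 of 750 had none, 14 had 1 and 9 had 183 to 1418. No endothelial cell of any library had between 2 and 9 UMIs, so a limit of 10 Ccl21a UMIs, chosen after these counts were seen, separates 14 Ccl21a-high cells.

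**Figure D1:**
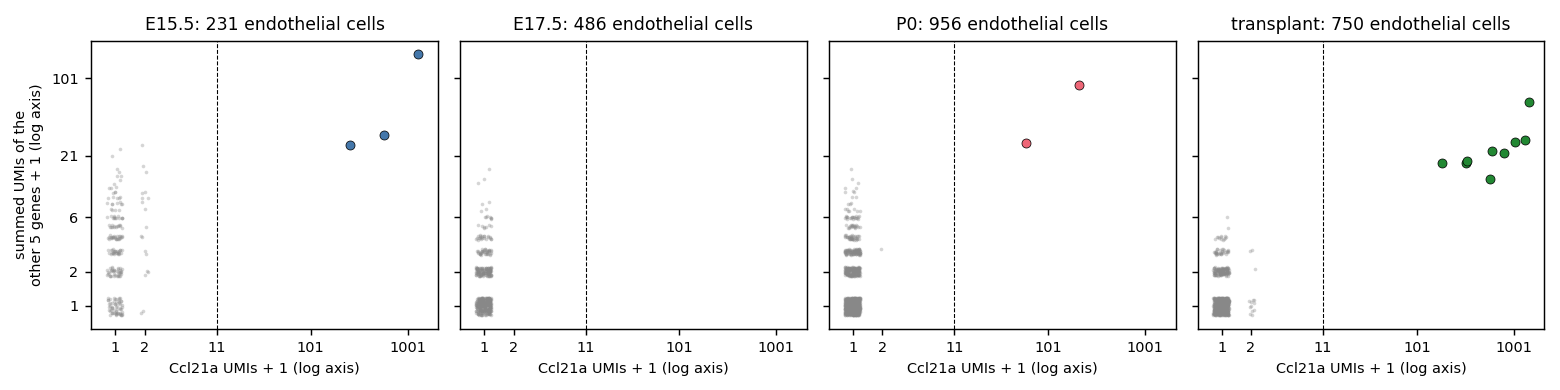
Ccl21a UMIs against the summed UMIs of Prox1, Lyve1, Mmrn1, Pdpn and Flt4 in each endothelial cell, both plus 1 on log axes, 1 panel per library, with points jittered. The dashed line marks 10 Ccl21a UMIs, and the large points to its right are the 3 cells at E15.5, 2 at P0 and 9 in the transplant, with none at E17.5.

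The Ccl21a-high cells were 1.30% of endothelial cells at E15.5 (exact 95% interval 0.269 to 3.75), 0.209% at P0 (0.0253 to 0.754) and 1.20% in the transplant (0.550 to 2.27). At E17.5 they were 0 of 486, which allows a share of up to 0.617% when 3 cells are taken as the limit, and of 0.756% by the exact interval. These intervals, like every interval here, cover counting error only. The E15.5 and transplant shares lay close together although their pooled Ccl21a levels differed, and the interval at P0 overlapped that of each other library. The level per cell differed as well: Ccl21a made up 1.86% to 2.96% of the UMIs of the 3 cells at E15.5, 1.02% and 1.03% of those of the 2 cells at P0, and 3.65% to 14.8% (median 11.7%) in the 9 cells of the transplant. The ranges of the 3 libraries did not overlap. Ccl21b, the near copy, had 27 UMIs in 8 of the 14 cells, 26 of them in the transplant and 1 at E15.5, and 0 UMIs in the 1923 other endothelial cells of these libraries. At E17.5 a single cell outside the gate had at least 10 Ccl21a UMIs: a cell without a class, of 1064 UMIs and 580 genes, with 27 Ccl21a, 4 Lyve1, 2 Reln and 1 Mmrn1 UMIs and 1 endothelial marker on, too few for the gate. Ccl21a was 2.54% of its UMIs.

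Each of the 14 cells carried 4 to 6 of the 6 genes, Ccl21a among them by the way they were chosen. The deepest, at E15.5, had 68787 UMIs, of which 1281 were Ccl21a, 51 Mmrn1, 50 Prox1, 40 Flt4, 17 Lyve1 and 7 Pdpn. The other 2 cells at E15.5 had 573 and 256 Ccl21a UMIs, 10 and 18 of Mmrn1, 10 and 6 of Prox1, 0 and 1 of Lyve1, 4 and 0 of Pdpn, and 7 and 0 of Flt4. Prox1 was present in all 3, whereas Lyve1 was nearly absent from 2 of them. The 2 cells at P0 had 207 and 59 Ccl21a UMIs, 61 and 14 of Lyve1, 16 and 8 of Mmrn1, 8 and 4 of Prox1, 1 and 0 of Pdpn, and 2 and 0 of Flt4. In the 9 transplant cells Mmrn1 ranged from 3 to 33 UMIs (median 9), Prox1 from 0 to 6 (median 3), Lyve1 from 0 to 8 (median 3), Flt4 from 0 to 12 (median 2) and Pdpn from 0 to 5 (median 1). Over the 14 cells Mmrn1 was found in 14, Prox1 in 13, and Lyve1, Pdpn and Flt4 in 11 each. Every one had 4 or 5 of the 6 endothelial gate markers on and at most 2 markers of any other class.

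A doublet caller treated these cells unlike the rest. Scrublet, run only as an alternative at a fixed rate, removed 7 of the 231 endothelial cells at E15.5 (3.03%), 57 of 956 at P0 (5.96%) and 47 of 750 in the transplant (6.27%), yet it removed 13 of the 14 Ccl21a-high cells: 3 of 3, 2 of 2 and 8 of 9. The reporter tdTomato, found only in the P0 library, was at 0 in the 2 Ccl21a-high cells there, too few to bear on doublets. The UMI totals of the 14 cells ran from 2168 to 68787 with a median of 7267.5. Whether they hold RNA of more than 1 cell was not tested beyond the marker counts given.

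The share of the endothelial UMIs that these few cells held differed from gene to gene. They held 99.1% of the Ccl21a UMIs at E15.5, 99.6% at P0 and 99.8% in the transplant. For Prox1 the shares were 85.7%, 9.02% and 50.9%, for Lyve1 25.7%, 29.0% and 97.4%, and for Mmrn1 29.8%, 50.0% and 90.7%. They held 39.3%, 4.0% and 37.5% of the Pdpn UMIs, and 9.73%, 0.423% and 15.9% of those of Flt4. Ccl21a lay almost wholly in these cells, but they were selected by their Ccl21a UMIs, so its share cannot be set beside the others. Flt4 lay mostly outside them, and the shares of the other 4 genes depended on the library. For this reason the levels of the other 5 genes are given both over all endothelial cells and without the Ccl21a-high cells.

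**Figure D2:**
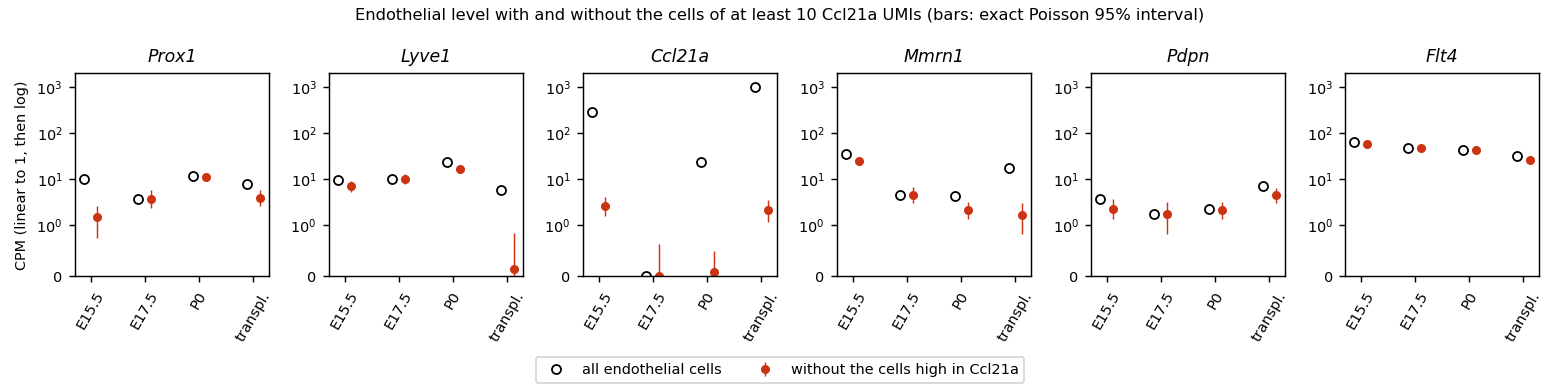
Endothelial level of each gene in CPM (linear to 1, then log), over all endothelial cells (open) and without the Ccl21a-high cells (filled, with exact Poisson 95% intervals). Prox1 at E15.5 and Lyve1 and Mmrn1 in the transplant lie apart between the open and filled points, and Flt4 hardly moves.

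Prox1, the lineage regulator, had 77 endothelial UMIs at E15.5 (10.3 CPM), 22 at E17.5 (3.78 CPM), 133 at P0 (12.0 CPM) and 53 in the transplant (7.998 CPM). Over all endothelial cells P0, E15.5 and the transplant did not separate from their neighbours in that order by counting interval, and E17.5 lay below them. A single cell gave 50 of the 77 UMIs at E15.5. Without the Ccl21a-high cells the levels were 1.497 CPM at E15.5 (11 UMIs in 9 cells), 3.78 at E17.5 (22 in 21 cells), 10.98 at P0 (121 in 99 cells) and 3.96 in the transplant (26 in 21 cells). The E15.5 level was then the lowest and P0 the highest, with P0 at 7.34-fold over E15.5 (95% interval 3.96 to 15.1). At P0 Prox1 was thus found as single UMIs across many endothelial cells, 82 of the 101 positive cells having just 1. Thinned to 3000 UMIs per cell, which left out 6, 57, 87 and 122 shallower cells, Prox1 was seen in 2.22% of endothelial cells in the E15.5 library, 0.932% at E17.5, 3.45% at P0 and 1.75% for the transplant.

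The other genes carried by the Prox1-positive cells outside the Ccl21a-high group are set beside those of the Prox1-negative cells. At P0, 7 of the 99 (7.07%) had Lyve1, against 6.78% of the Prox1-negative cells. Flt4 was in 59.6% against 27.5% there, at median depths of 14928 and 8173 UMIs. In the transplant, 0 of 21 had Lyve1, Ccl21a or Mmrn1. Only 0.139%, 1.94% and 1.39% of the negative cells had them, so 0 lies near those shares. At E15.5, 7 of the 9 had Mmrn1 and 9 of 9 had Flt4, against 34.2% and 65.3% of the negative cells. The median depth was 61110 UMIs in the positive and 26061 in the negative cells. The summed level of 6 arterial genes at P0 was 837 CPM in Prox1-positive and 951 CPM in Prox1-negative cells, and that of 6 capillary and venous genes was 3915 and 3958 CPM. Markers of the loop of Henle, the class with the most Prox1 outside the endothelium, were no higher in the positive cells, at 13.97 against 31.0 CPM at P0. Prox1 was also read in nephron progenitors (5.99 CPM at E17.5) and intercalated cells (6.08 CPM at P0, 3 UMIs). Markers of those classes were not compared in this way.

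Outside the endothelium, Prox1 was highest in the loop of Henle. It was at 7.57 CPM there at E15.5 (16 UMIs), 13.3 at E17.5 (24 UMIs), 6.24 at P0 (34 UMIs) and 12.2 in the transplant (96 UMIs). The loop of Henle ranked above the endothelium at E17.5 and in the transplant and below it at E15.5 and P0, and the intervals of the pair overlapped at E15.5 and in the transplant.

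Lyve1, the hyaluronan receptor, had 70 endothelial UMIs at E15.5 (9.40 CPM, 24 cells), 60 at E17.5 (10.3 CPM, 20 cells), 259 at P0 (23.4 CPM, 67 cells) and 39 in the transplant (5.89 CPM, 8 cells). P0 stood above the other 3. Without the Ccl21a-high cells the levels were 7.07, 10.3 and 16.7 CPM in the kidneys in situ and 0.152 CPM in the transplant, where 1 UMI in 741 cells was left. Outside the Ccl21a-high cells Lyve1 was therefore found in 22, 20 and 65 endothelial cells of the kidneys in situ and in 1 of the transplant. The ratio of P0 to the transplant in these cells, 110-fold, rests on that 1 UMI and its interval runs from 19.4 to 4351.

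The Lyve1-positive endothelial cells of E15.5 outside the Ccl21a-high group were poor in arterial RNA. Gja4, an arterial gap junction gene, had 1 UMI in the 22 positive cells (0.996 CPM) and 1143 UMIs in the 206 negative cells (180 CPM), and Gja5 had 0 against 409 UMIs. The arterial sum over 6 genes was 102 against 710 CPM, a ratio of 0.143 (0.116 to 0.174), while the capillary and venous sum was 1636 against 1602 CPM. The venous regulator Nr2f2 was 2.18-fold higher in the positive cells (1.88 to 2.51). At E17.5 the positive cells differed in another way: Ehd3, a gene of glomerular endothelium, was at 976 CPM in the 20 positive and 251 CPM in the 466 negative cells. At P0 the 65 positive cells had Plvap, a gene of fenestrated capillaries, at 1468 against 711 CPM, and an arterial sum of 534 against 971 CPM. The positive cells were the deeper ones in each library, with medians of 37767 against 25738 UMIs at E15.5. The 6 macrophage markers of the gate had 4.98 against 8.67 CPM in positive and negative cells at E15.5, 3.1 against 4.19 at E17.5 and 7.2 against 4.88 at P0, with overlapping intervals.

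Macrophages had the highest Lyve1 level of any class of at least 20 cells in all 4 libraries. Their level was 196 CPM at E15.5 (166 UMIs in 48 cells), 124 at E17.5 (22 UMIs in 36 cells), 51.7 at P0 (8 UMIs in 21 cells) and 20.04 in the transplant (11 UMIs in 81 cells). The interval at P0, 22.3 to 102, overlapped that of the endothelium. Thinned to 3000 UMIs, 25.6% of macrophages at E15.5 had a Lyve1 UMI and 1.43% in the transplant.

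Mmrn1, the stored matrix protein, had 265 endothelial UMIs at E15.5 (35.6 CPM), 27 at E17.5 (4.64 CPM), 48 at P0 (4.35 CPM) and 118 in the transplant (17.8 CPM). E15.5 was highest and the transplant next, and E17.5 and P0 did not separate. Without the Ccl21a-high cells the levels were 25.3, 4.64, 2.18 and 1.68 CPM, so E15.5 stayed highest and the transplant became lowest, its interval overlapping that of P0. At E15.5 Mmrn1 was in 82 of the 228 remaining endothelial cells, which gives 36.0%, against 10 of 741 in the transplant. Thinned to 3000 UMIs, with the Ccl21a-high cells included, 6.22% of endothelial cells at E15.5 had a Mmrn1 UMI, against 0.699% at E17.5, 1.04% at P0 and 1.11% for the transplant. In no other class was Mmrn1 above 0.787 CPM.

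The 82 Mmrn1-positive cells of E15.5 were again poor in arterial genes. Gja4 was at 31.9 CPM in them and at 271 CPM in the 146 negative cells, Gja5 at 7.33 against 101 CPM, and the arterial sum at 249.6 against 978 CPM (ratio 0.255, 0.237 to 0.275). Nr2f2 was 1.86-fold higher (1.63 to 2.13), and Aplnr, a venous and capillary receptor gene, 1.52-fold higher (1.38 to 1.68). At E17.5 the 23 positive cells had 0 Gja4 UMIs against 801 in the 463 negative cells, and Ehd3 at 53.0 against 311 CPM. The Lyve1-positive and Mmrn1-positive cells overlapped at E15.5: 15 of the 22 Lyve1-positive cells (68.2%) had Mmrn1, against 32.5% of the Lyve1-negative cells, with the depth difference given above. The part of depth in these overlaps was not tested.

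Flt4, the VEGF-C receptor gene, was the most widespread. It had 483 endothelial UMIs at E15.5 (64.9 CPM), 281 at E17.5 (48.3 CPM), 473 at P0 (42.8 CPM) and 207 in the transplant (31.2 CPM), in 66.7%, 37.0%, 30.9% and 19.3% of the endothelial cells. Thinned to 3000 UMIs the shares were 18.2%, 13.1%, 10.6% and 8.76%, in the same order. E15.5 lay highest and the transplant lowest, with overlapping intervals for E17.5 and P0. Without the Ccl21a-high cells the levels were 59.3, 48.3, 42.7 and 26.5 CPM. The endothelium was the highest class in each library and no other class went above 3.54 CPM. As with Lyve1 and Mmrn1, Flt4-positive cells at E15.5 had a lower arterial sum, 399.6 against 1713 CPM in 152 positive and 76 negative cells, at median depths of 34506.5 and 12557.5 UMIs.

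Pdpn, the podoplanin gene, had few endothelial UMIs, with 28 at E15.5 (3.76 CPM), 10 at E17.5 (1.72 CPM), 25 at P0 (2.26 CPM) and 48 in the transplant (7.24 CPM). The transplant was highest, but its interval (5.34 to 9.60) met that of E15.5 (2.50 to 5.43), and no neighbours in the order separated. Outside the Ccl21a-high cells the levels were 2.31, 1.72, 2.18 and 4.57 CPM. Podocyte markers moved with Pdpn in these cells at P0 and in the transplant. The 6 podocyte markers were at 228 against 40.3 CPM in the 20 Pdpn-positive and 934 negative cells at P0 (5.66-fold, 4.52 to 7.02) and at 169 against 55.01 CPM in the transplant (3.08-fold, 2.10 to 4.39), against 3872 and 5044 CPM in podocytes. Loop of Henle markers were 5.77-fold higher at P0 and 2.71-fold higher in the transplant. At E15.5, and at E17.5 with 6 Pdpn-positive cells, neither differed beyond counting error. The part of RNA from those cells in the endothelial Pdpn count was not tested.

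Pdpn was higher in several epithelial classes, although the proximal tubule, at 4.10 to 8.72 CPM, overlapped the endothelium at E15.5 and in the transplant. Podocytes held 18.9 CPM at E15.5 (24 UMIs), 182 at E17.5 (206 UMIs), 88.3 at P0 (223 UMIs) and 235 in the transplant (860 UMIs). They were the highest class of at least 20 cells in the last 3 libraries, whereas at E15.5 the loop of Henle led with 33.1 CPM and nephron progenitors followed with 22.0. Thinned to 3000 UMIs, the share of podocytes with a Pdpn UMI was 9.09% in the E15.5 library, 40.3% at E17.5, 22.6% at P0 and 46.5% for the transplant. Mesothelial cells, too few to be ranked, had 160 to 995 CPM in 1 to 11 cells per library.

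**Figure D3:**
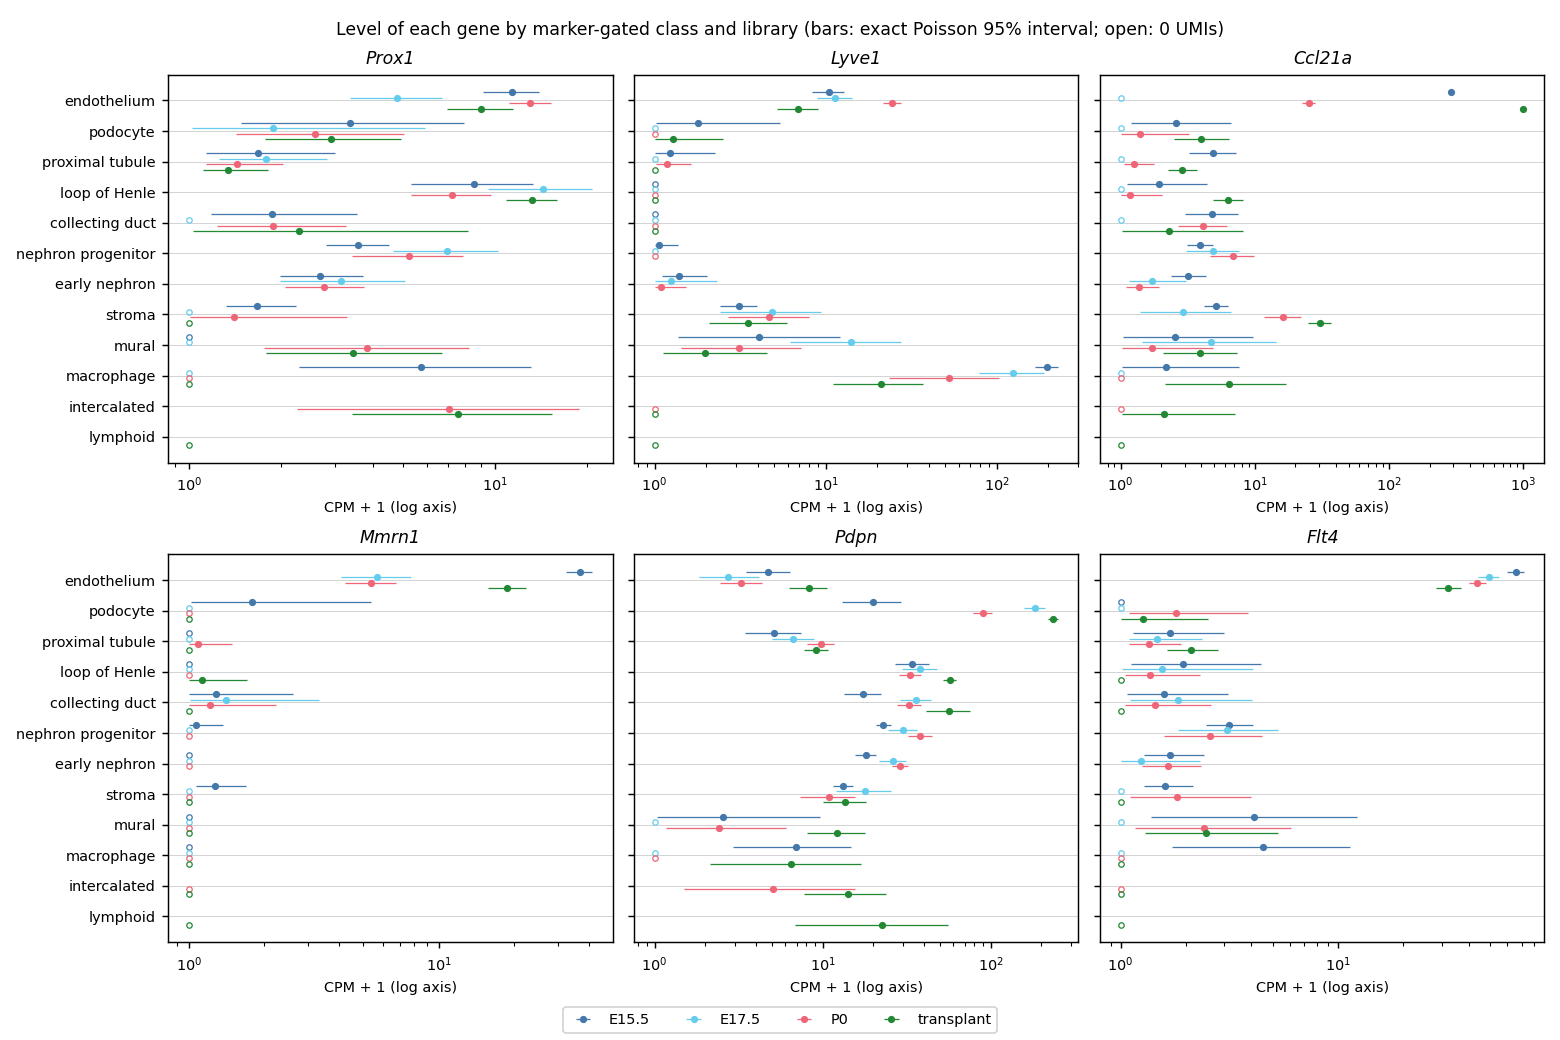
Level of each gene (CPM plus 1, log axis) in every marker-gated class of at least 20 cells, by library, with exact Poisson 95% intervals; open points are 0 UMIs. Ccl21a, Mmrn1 and Flt4 are led by endothelium, except that Ccl21a has no endothelial UMI at E17.5, while macrophages lead Lyve1, podocytes lead Pdpn from E17.5 on, and endothelium and loop of Henle share the lead for Prox1.

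Ccl21a was low in the other classes, apart from a few cells. Stroma came next after endothelium, with 4.12 CPM at E15.5, 15.2 at P0 and 29.4 in the transplant, and had 1.94 at E17.5. Single cells gave 17 of the 61 stromal UMIs at E15.5 and 18 of the 37 at P0, and in the transplant 2 cells gave 24 and 10 of the 93. A loop of Henle cell of the transplant gave 24 of the 42 UMIs of its class. At E15.5, 9 of the 9 other classes of at least 20 cells had 0.946 to 4.12 CPM, and the endothelial cells below 10 UMIs had 2.58 CPM. The source of single Ccl21a UMIs, found in 8.33% of these endothelial cells, was not tested.

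The libraries were also compared as ratios of endothelial CPM, with exact conditional intervals. A gene counts as past 2-fold here by its ratio alone, given at least 20 UMIs, and a library at 0 is set to 3 counts. From E15.5 to P0, both ICR, 1 of the 6 genes was past 2-fold higher and 2 were past 2-fold lower, against 12.9% and 8.49% of all 11630 genes. Lyve1 was 2.49-fold higher at P0 (1.91 to 3.30), a call lost at a log2 ratio of 0.96 when the gate asked for no lead over other classes. Ccl21a was 11.8-fold lower (10.4 to 13.5) and Mmrn1 8.19-fold lower (6.00 to 11.4). The Ccl21a ratio compares mostly the UMIs of 2 and 3 cells, and without them it rests on 1 against 19 UMIs. Flt4 was 1.51-fold lower (1.33 to 1.72), and the intervals of Prox1 (0.873 to 1.56) and Pdpn (0.337 to 1.07) held 1. The Lyve1 and Mmrn1 ratios were much the same without the Ccl21a-high cells, at 2.36-fold higher and 11.6-fold lower, and Prox1 moved from 1.16 to 7.34.

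At E17.5 against E15.5, 0 of the genes were past 2-fold higher and 4 past 2-fold lower, where the shares of all genes were 8.37% and 4.21%. Ccl21a was at least 554-fold lower with E17.5 set to 3 counts, or 450.1-fold by the limit of the exact interval. Of the 2129 UMIs at E15.5, 2110 lay in 3 cells. Without those cells 19 UMIs against 0 were left, too few for a call. By cells the exact intervals, 0.269% to 3.75% and up to 0.756%, overlapped. Mmrn1 was 7.66-fold lower (5.15 to 11.8), Prox1 2.73-fold lower (1.68 to 4.61) and Pdpn 2.19-fold lower (1.03 to 5.04). Lyve1 had a ratio of 1.10 (0.765 to 1.57) and Flt4 of 0.745 (0.641 to 0.865). Without the Ccl21a-high cells, of which E17.5 had none, Mmrn1 stayed 5.45-fold lower (3.63 to 8.49) but Prox1 turned to 2.53-fold higher (1.18 to 5.78), and Pdpn lost its call with a ratio of 0.744 (0.304 to 1.72).

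The transplant had 4 of the genes past 2-fold higher and 0 lower against E17.5, with 12.1% and 5.34% of all genes past these limits. Ccl21a was at least 1917-fold higher with E17.5 set to 3 counts, or 1558-fold by the limit of the exact interval. That limit takes UMIs of the same cell as independent, although 6541 of the 6555 lay in 9 cells. By cells, 9 of 750 and 0 of 486 overlapped in their exact intervals (0.550% to 2.27%, and up to 0.756%). The gate also left out an E17.5 cell with 27 Ccl21a UMIs. Without the Ccl21a-high cells 14 UMIs against 0 were left, too few for a call. Pdpn was 4.21-fold higher (2.10 to 9.335), Mmrn1 3.83-fold (2.51 to 6.06) and Prox1 2.11-fold (1.26 to 3.65). Without the Ccl21a-high cells Pdpn stayed 2.66-fold higher, Prox1 had a ratio of 1.05 (0.570 to 1.94), and Mmrn1 was 2.77-fold lower (1.33 to 6.19). Lyve1, 1.75-fold lower over all endothelial cells (1.15 to 2.70), was then 67.7-fold lower on 1 against 60 UMIs (11.7 to 2720). Against P0 the transplant had 3 genes past 2-fold higher and 1 lower, with 14.0% and 6.84% of all genes. They were Ccl21a at 40.9-fold (36.2 to 46.4), Mmrn1 at 4.10-fold (2.91 to 5.86) and Pdpn at 3.20-fold (1.94 to 5.42), and Lyve1 was 3.98-fold lower (2.84 to 5.73). The Ccl21a ratio compares mostly the UMIs of 9 and 2 cells, with 14 against 1 UMIs outside them. With the Ccl21a-high cells left out, Mmrn1 lost this call and turned, with a ratio of 0.770 (0.340 to 1.63), Prox1 became 2.77-fold lower (1.80 to 4.41), Lyve1 stood on 1 UMI as given above, and Pdpn stayed 2.10-fold higher (1.19 to 3.75). With Scrublet doublets removed the Mmrn1 log2 ratio was 0.55. Both comparisons share the transplant, and the first 2 share E15.5. Flt4 was the single gene that was past 2-fold in none of the 4.

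The median log2 ratio of all genes in these comparisons was -0.02 for P0 over E15.5, 0.14 for E17.5 over E15.5 and for the transplant over E17.5, and 0.30 for the transplant over P0. Relative to that median, Prox1 in the transplant over E17.5 fell below 2-fold, at a log2 ratio of 0.93, and the other calls of the 6 genes stood.

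**Figure D4:**
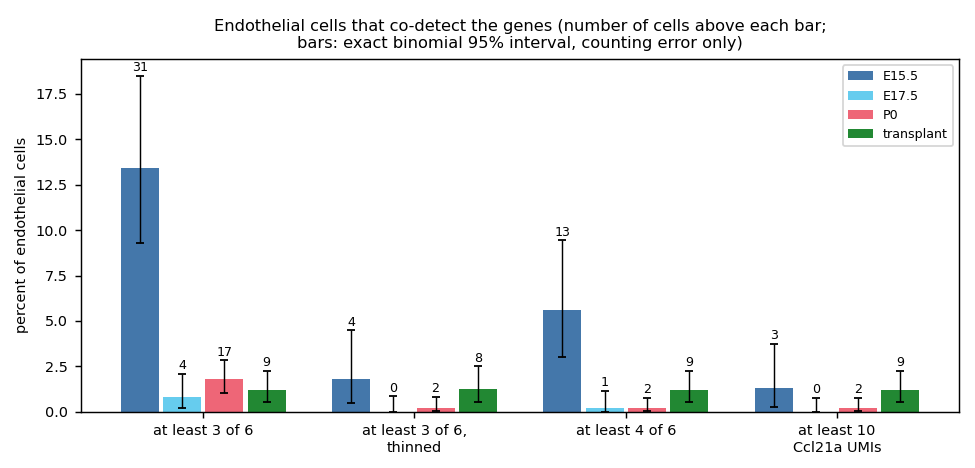
Percent of endothelial cells with at least 3 of the 6 genes (as counted and thinned to 3000 UMIs per cell), with at least 4, and with at least 10 Ccl21a UMIs, by library, with exact binomial 95% intervals and the number of cells above each bar. The E15.5 bar falls from 31 cells to 4 on thinning, and the transplant bar holds 8 or 9 cells by every rule.

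Co-detection was counted as cells with at least 3 of the 6 genes. These were 31 of 231 endothelial cells at E15.5 (13.4%, 9.30 to 18.5), 4 of 486 at E17.5 (0.823%, 0.225 to 2.09), 17 of 956 at P0 (1.78%, 1.04 to 2.83) and 9 of 750 in the transplant (1.20%, 0.550 to 2.27). The co-detecting cells were deeper than the rest in the kidneys in situ, with medians of 47064, 28080.5 and 18864 UMIs, and not in the transplant, with 5020. Thinned to 3000 UMIs per cell the counts were 4 of 225 (1.78%), 0 of 429 (up to 0.699% with 3 cells as the limit, 0.856% by the exact interval), 2 of 869 (0.230%) and 8 of 628 (1.27%). In the transplant the number of genes per cell fell into 2 ranges: 553 cells had 0, 168 had 1, 20 had 2, 0 had 3 or 4, 5 had 5 and 4 had 6. The 9 cells with 5 or 6, Ccl21a included, were exactly the Ccl21a-high cells. At E15.5 all numbers from 0 to 6 occurred, and 28 of the 31 co-detecting cells were not Ccl21a-high. In every other class at most 2 cells had 3 or more of the genes, except 6 of 646 loop of Henle cells in the transplant (0.929%) and cells without a class, where there were 8 of 1236 at E15.5 and 3 of 3665 at P0.

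The 14 Ccl21a-high cells were set beside the 1923 other endothelial cells of their 3 libraries, with the expected count taken within each library. Intervals here cover the counts of the 14 cells only, and 9 of the 14 are from the transplant. Among the other 5 genes, Prox1 was 154-fold above expectation (126 to 187), Lyve1 116-fold (97.0 to 138), Mmrn1 80.0-fold (69.6 to 91.6), Pdpn 52.4-fold (35.4 to 74.9) and Flt4 9.58-fold (7.62 to 11.9), each higher in 3 of 3 libraries. At P0 this rested on 1 Pdpn UMI, and on 2 Flt4 UMIs in 1 cell (77.4 against 42.7 CPM). The genes were chosen by co-detection in these libraries, so their folds are a description. Over all 12140 genes counted in this comparison, 11.7% were past 2-fold higher and 11.1% past 2-fold lower.

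Transcription factors of lymphatic specification were mostly higher in these cells: 5 of 7 were past 2-fold higher and 1 past 2-fold lower, with a median ratio of 3.69 against 0.832 over all genes (1.14 with genes at 0 set to 3 counts). Tbx1, a T-box factor, had 24 UMIs in 10 of the 14 cells and 3 UMIs in all the others. Maf was 27.1-fold higher (21.9 to 33.2), Nfatc1, a valve regulator, 4.07-fold (2.23 to 6.83) and Nr2f2 3.69-fold (2.88 to 4.64). Foxc2, needed for valves and collecting vessels, was 2.98-fold higher (1.36 to 5.66), but 6 of its 9 UMIs came from P0. Foxc2 was at 232 against 26.2 CPM there, and at 20.6 against 15.9 CPM at E15.5 on 2 UMIs. In the transplant 1 Foxc2 UMI gave 15.7 against 12.49 CPM. Sox18 was 1.54-fold higher (1.15 to 2.03), though lower at E15.5 with 92.5 against 119.99 CPM, and Gata2 had 4 UMIs, a ratio of 0.407 (0.111 to 1.04). By class, Nr2f2 was highest in stroma (453 to 635 CPM), Foxc2 in podocytes (381 to 564 CPM) and Sox18 in endothelium in every library. The leading class of the other factors varied by library.

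Of 5 receptors and co-receptors, 2 were past 2-fold higher and 0 lower. Nrp2, the VEGF-C co-receptor, had UMIs in 14 of 14 cells and was 18.9-fold higher (16.6 to 21.4), and the integrin gene Itga9 was 4.13-fold higher (2.62 to 6.19), with 20 of its 23 UMIs at E15.5. The angiopoietin and VEGF receptor genes Tie1, Kdr and Tek were at 1.46, 1.33 and 0.553. Kdr was higher only at E15.5 (751 against 368 CPM), and lower at P0 (116 against 470) and in the transplant (424 against 463). The ligand genes themselves had 0 UMIs in the 14 cells, against 918 of Vegfc and 76 of Vegfd in the others. The counts expected in the 14 cells were 7.96 and 0.622 UMIs, so the 0 of Vegfd says little. In the kidney as a whole Vegfc was highest in endothelium, at 25.4 to 48.0 CPM, and Vegfd in stroma, at 72.2 to 206 CPM.

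Of 9 other lymphatic genes with enough UMIs, 7 were past 2-fold higher and 1 lower, with a median of 8.77. Fgl2, a fibrinogen-like gene, had 75 UMIs in 11 of the 14 cells against 7 in the 1923 others. Reln, which encodes the secreted protein reelin, was in 13 of 14 cells and 58.3-fold higher (46.7 to 71.9). Thy1 was 14.6-fold higher (11.2 to 18.8), the scavenger receptor gene Stab1 9.90-fold (8.15 to 11.9), the claudin gene Cldn11 8.77-fold (5.36 to 13.5), Stab2 6.41-fold (3.50 to 10.8) and the connexin gene Gja1 4.58-fold (3.62 to 5.71). Not every library shared in these: the 14 Stab2 UMIs all came from the transplant cells, and Cldn11 had 10 UMIs each at E15.5 and P0 and 0 in the transplant. Fabp4, the fatty acid binding protein gene, went the other way, at 13.1-fold lower. These ratios are within endothelium only. By class, Reln was highest in mural cells (22.9 to 189 CPM), Cldn11 in stroma (173 to 314) and Stab1 in macrophages (142 to 441) in every library. Stab2 and Fabp4 were highest in endothelium, and the leading class of Thy1, Fgl2, Gja1 and Cd9 varied by library.

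Genes of blood vessel subtypes were mostly low in the same cells. Of 6 arterial genes 5 were past 2-fold lower and 0 higher, with Gja4 at 0.359 (0.179 to 0.643) and Sox17 at 0.116 (0.0503 to 0.229). At P0 Gja4 lay the other way, with 7 UMIs in the 2 high cells (271 CPM) against 121 CPM in the others. Of 6 capillary and venous genes 4 were lower and 1 higher: Emcn was 29.3-fold lower, Igfbp3 19.7-fold lower, Aplnr had 0 UMIs against 6306, Nrp1 had 1 against 9315, and the venous receptor gene Ephb4 was 2.61-fold higher (1.83 to 3.59). The 6 glomerular endothelial genes had 8 UMIs together in the 14 cells and 16158 in the others, and 4 of them were past 2-fold lower. The gate markers split: Cldn5 was 3.19-fold higher, Tie1 1.46-fold and Egfl7 1.27-fold, Cdh5 and Pecam1 were at 0.860 and 0.585, and Esam had 1 UMI against 11451. Among the genes with the highest lower bounds outside these lists were Ptx3, a pentraxin of innate immunity, with 114 UMIs in 12 cells against 11, Mrc1, the mannose receptor gene, with 32 against 18, Scn3a with 21 against 3, Apba2 with 24 against 4, Slc45a3 with 38 against 16, and Pard6g, a polarity gene, in 14 of 14 cells at 71.2-fold (56.5 to 88.6). Among the lowest, Flt1, the VEGF receptor 1 gene of blood endothelium, had 0 UMIs against 13767 and Ly6c1 0 against 8745.

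**Figure D5:**
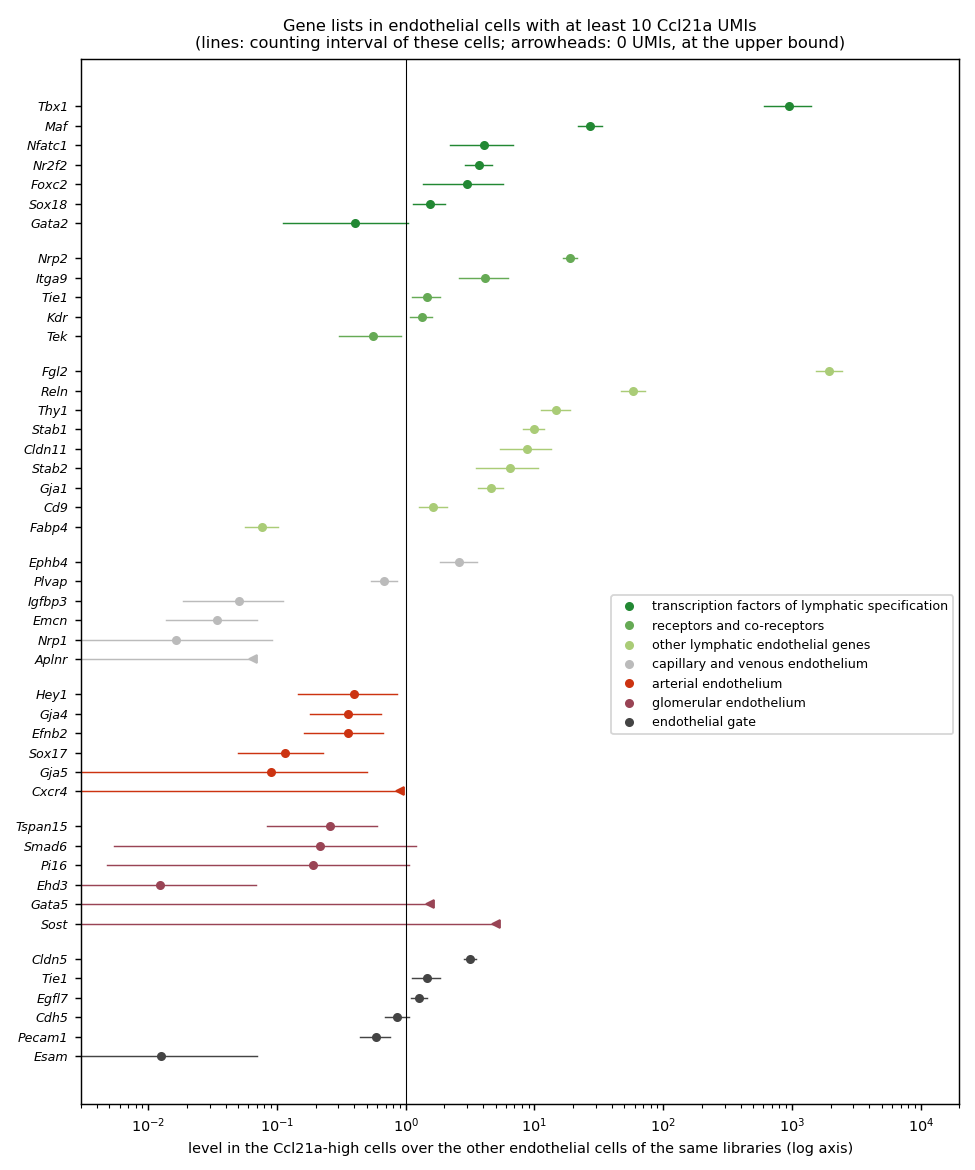
Level of each listed gene in the 14 Ccl21a-high cells over the other endothelial cells of the same libraries (log axis; lines are counting intervals of the 14 cells, arrowheads mark 0 UMIs at the upper bound). Most genes of the 3 green lymphatic lists lie right of 1, and arterial, glomerular and most capillary and venous genes lie left of it.

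The cells with at least 3 of the 6 genes, 57 in the E15.5, P0 and transplant libraries, included the 14 and differed less from the rest. Against the 1880 other endothelial cells, 3.69% of all genes were past 2-fold higher and 5.36% past 2-fold lower. Of the 6 arterial genes 5 were past 2-fold lower, of the 7 transcription factors 3 were past 2-fold higher, and of the 6 capillary and venous genes 0 were past it either way.

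The upstream regulator Sox18 stood out in the endothelium of the transplant. It was at 120 CPM in the E15.5 library, 41.6 at E17.5, 43.5 at P0 and 321 for the transplant, which was 7.72-fold over E17.5 (6.75 to 8.85) and 7.39-fold over P0 (6.69 to 8.18). Nr2f2 was at 136, 116, 70.9 and 79.7 CPM. Of the 6 transcription factors with enough UMIs, 1 was past 2-fold higher and 1 past 2-fold lower at P0 against E15.5 (12.9% and 8.49% of all genes), and 1 and 0 in the transplant against E17.5 (12.1% and 5.34%), so that these counts lie near the shares of all genes. Of the 5 receptors, 0 were past 2-fold either way in both comparisons. In the transplant against P0, 1 transcription factor was past 2-fold higher and 1 lower, and 0 and 1 of the receptors. Of all genes, 14.0% and 6.84% were past these limits there. The lower ones were Foxc2, at a ratio of 0.469 (0.363 to 0.600), and Itga9, at 0.480 (0.395 to 0.581). Reln had 157 endothelial UMIs in the E15.5 library, 12 at E17.5, 15 at P0 and 35 for the transplant. Vegfc was 1.87-fold higher in the transplant than at E17.5 (1.54 to 2.29), and Vegfd 10.97-fold higher on 50 against 4 UMIs (4.03 to 41.8).

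Likeness of pattern was measured over the 41 pairs of class and library with enough cells, as Pearson's r of log2(CPM + 1). The points share libraries and depth, so r is a description. The genes most like Flt4 were Robo4 (0.93), Nova2 (0.93) and Rasip1 (0.92), and those most like Mmrn1 were Slc10a4 (0.95), Nr5a2 (0.94) and Nos2 (0.93). Lyve1 was most like Pf4 (0.89), Plekho2 (0.89) and Slco2b1 (0.88). Pdpn was most like Bmp7 (0.79), Ctnnal1 (0.78) and Arnt2 (0.77). Ccl21a was most like Ptchd1, Mmrn1 and Tmem255b, at 0.73, 0.73 and 0.72, and Prox1 had no closer gene than Fam107a at 0.69. Among the 6 themselves the highest value was Mmrn1 with Flt4 (0.86) and the lowest Lyve1 with Pdpn (-0.68).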

How the data were processed

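Single-cell RNA of 4 mouse kidney libraries was measured with 10x 3′ v2 chemistry, per the labels' protocols. The deposited values are whole-number UMI counts for each gene in each barcode that the authors had called as a cell. The submitters' processing notes name Cell Ranger 3.1.0 and GRCm38. Per the file headers the ICR libraries were made with version 3.0.2 and the others with 3.1.0, so that version and strain cannot be told apart. How strand and reads shared by near copies were treated is not given in the sources used here. A joined matrix of 3 libraries was not used. The libraries held 4158, 5551, 10810 and 7670 barcodes with 92387054, 42430540, 99068204 and 57855356 UMIs (E15.5, E17.5, P0, transplant).

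Cells were kept at 500 or more genes and 20% or less mitochondrial UMIs. A marker was on at 1 UMI or more and at least 1 UMI per 10000, and 34.7% to 45.3% of cells had no class. UMIs were summed per class and library and scaled to CPM. Poisson, Clopper-Pearson and conditional binomial intervals are exact, at 95%. Ratios use a floor of 3 counts for a library at 0. Thinning used seed 1. Genes named beside the 14 cells were the 15 with the highest lower bound and the 5 with the lowest upper bound, not all printed. Likeness used genes of at least 100 UMIs, a pseudocount of 1 and the first 3 genes. The genes and lists were chosen with earlier results of these data known. The library ratios and the intervals of shares were tested on simulated independent counts. UMIs gathered in a few cells, as for Ccl21a, were not simulated. Python 3.11.15, numpy 2.4.6, scipy 1.17.1, pandas 2.3.3 and scanpy 1.11.5 (Scrublet) were used. With 1 library per group no test was made. The alternatives changed the gate, filters, depth, the number of genes that counts as co-detection, doublet removal and the averaging.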

Additional observations from a re-analysis of the deposited data

How the results depend on the processing

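Co-detection depended on the number of genes asked for and on depth. The percent of endothelial cells with at least 3 of the 6 genes, 13.4, 0.823, 1.78 and 1.20 (E15.5, E17.5, P0, transplant), was 40.7, 7.0, 12.3 and 3.87 for at least 2 genes and 5.63, 0.206 and 0.209 for at least 4 in the first 3 libraries. It was 1.78, 0 and 0.230 there after thinning to 3000 UMIs and 1.30, 0 and 0.209 for at least 10 Ccl21a UMIs. With Scrublet doublets removed the transplant share was 0.142. Prox1 at E17.5 over E15.5, a log2 ratio of -1.45, turned to 1.33 without Scrublet doublets, to 3.30 in cells with fewer than 3 of the genes and to 1.34 in cells with under 10 Ccl21a UMIs. Mmrn1 in the transplant over E17.5, 1.94, turned to -0.53, -1.20 and -1.47 under the same settings, and over P0, 2.03, it turned to -0.38 under the last. Of the ratios recomputed, 185 kept their value within the counting interval, 35 moved and 7 changed sign. The rules on Ccl21a UMIs and the centring on the median of all genes were chosen after seeing the data. No paired analysis was possible because each group is 1 library. Counts of 14 cells, and 0 at E17.5, limit the precision of each share.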
